A study of Mus musculus with 6 samples.

Results

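Clustered histone genes are the short genes, most of them in tight arrays, that supply the histones packed onto newly copied DNA. They were taken as every row of the deposited expression table named Hist1 to Hist4, which gave 62 of the 29955 gene names. All 62 were listed above 0 in at least 1 library, and the 58 that averaged 1 FPKM or more were tested. FPKM counts fragments after division by transcript length and by the total mapped in a library. Levels of genes of different length can be set side by side only as far as the length used is right. The 62 comprised 6 genes for the linker histone H1, 15 for H2A, 18 for H2B, 11 for H3 and 12 for H4. Of these, 50 lay in the Hist1 cluster on chromosome 13, 8 in the Hist2 cluster on chromosome 3, 3 in the Hist3 cluster on chromosome 11 and 1, Hist4h4, on chromosome 6.

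The cells were MS-1, a mouse line of pancreatic islet endothelium immortalised with the large T antigen of a simian virus, a protein that pushes cells into S phase. The 6 libraries combined transfection of a locked nucleic acid inhibitor of miR-31, of miR-27 or a negative-control inhibitor (NC) with 72 h of culture, either untreated or with TGF-β2 at 1 ng/ml. Each combination was 1 library, so there were no replicates, and the labels do not say whether the cultures were separate. The p-values therefore measure only the spread between these samples, and a difference between the inhibitors in their response to TGF-β2 could not be tested. Triplets of values are given in the order NC, miR-31 inhibitor, miR-27 inhibitor. The table holds no counts, so the depth behind each value is unknown.

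Most messenger RNAs end in a poly(A) tail. The mRNAs of the clustered histone genes end instead a few bases after a short stem-loop that is bound by SLBP, the protein that carries them through processing, export and translation. They are made in S phase from histone locus bodies assembled by NPAT, and are destroyed when DNA replication stops. Around DNA, H2A pairs with H2B and H3 pairs with H4 to form the nucleosome core, and H1 binds the linker between cores. Ribosomal RNA had been depleted from total RNA before the libraries were made, so RNAs without a poly(A) tail were kept.

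The stem-loop is shown because it is what sets these RNAs apart from nearly all others in the libraries. A stem of 6 base pairs closing a loop of 4 bases, in the histone form, was found after the stop codon in the GENCODE vM21 transcripts of 41 of the 62 genes. Over all GENCODE genes, 56 of 55341, or 0.101%, held one anywhere in any transcript, and 41 of the 56 were among the 62. It began 21 to 58 bases after the stop codon, with a median of 31. There were 8 distinct forms, and 1 gene is given for each, 5′ to 3′ as DNA, with the 16 bases of the stem-loop in capitals and 5 flanking bases on each side.
Hist1h1c: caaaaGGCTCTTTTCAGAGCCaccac
Hist1h2bb: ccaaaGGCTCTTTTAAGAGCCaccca
Hist2h2ac: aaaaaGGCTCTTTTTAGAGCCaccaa
Hist1h3g: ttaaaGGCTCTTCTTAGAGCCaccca
Hist1h4d: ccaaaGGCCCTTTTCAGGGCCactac
Hist1h4i: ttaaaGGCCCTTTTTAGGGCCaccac
Hist1h4b: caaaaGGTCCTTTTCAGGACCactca
Hist1h4a: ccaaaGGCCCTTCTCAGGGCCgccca
In GRCm38 these lie in the 3′ untranslated ends at chr13:23739507-23739532 (+), chr13:23747198-23747223 (+), chr3:96220413-96220438 (-), chr13:23535884-23535909 (+), chr13:23581945-23581970 (+), chr13:22040961-22040986 (-), chr13:23757361-23757386 (+) and chr13:23760795-23760820 (-). The form of Hist1h1c was the commonest, in 22 genes of the H1, H2A, H2B and H3 classes. The form of Hist1h2bb was held by 6 genes of the H1, H2B and H3 classes. All 4 forms found in H4 genes differed from those of the other classes, and 6 H4 genes held the form of Hist1h4d. Of the 21 genes without a match, 18 had fewer than 60 bases annotated after the stop codon. The other 3 were Hist1h2bc, Hist1h2br and Hist2h2be.

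Many of the places in the deposited table were also short, while others were far longer, up to 38889 bases for Hist1h1e. For 28 of the 62 genes the listed place on mm9, the build of the deposited table, was exactly as long as the reading frame, with no room for the stem-loop. Reading frames of a class are also near copies of each other. Among frames of the common length the median identity between 2 genes was 96.4% in H2A, 96.6% in H2B, 97.6% in H3 and 93.9% in H4. A median of 75.3% of the stretches of 50 bases in a member's reading frame also occurred in a transcript of another GENCODE gene. Untranslated ends of members were not compared, and the other gene could be one that overlaps the member, such as Trim17 for Hist3h2a. The median by class was 10.9% in H1, 85.8% in H2A, 79.8% in H2B, 81.8% in H3 and 69.0% in H4. How fragments that match several genes were shared out is not given in the sources used here, so the level of a single gene is less certain than that of its class, least of all for H1. In addition, 6 genes shared their listed place with another name. Hist1h1e and Hist1h2be were listed at the same place, chr13:23675539-23714427.

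Promoters of the classes carried different short motifs, which bear on the pairs and classes of genes compared here. Windows from 250 bases before to 50 after the transcript start, from RefSeq on GRCm38.p6, were found for 55 genes, and motifs were searched on both strands. CCAAT, the letters bound by the factor NF-Y, was in 47 of the 55, against 37.4% of all 32851 windows. It was in all 44 windows of the H1, H2A, H2B and H3 genes and in 3 of 11 of the H4 genes. TATAA was in 44 of 55, against 24.9% of all windows. ATTTGCAT, the octamer bound by OCT1, was in 7 of 14 H2A and 7 of 15 H2B windows and in no window of the other classes, against 1.74% of all windows. AAACACA, known as the H1 box, was in 5 of 6 H1 windows and 9 of 55 in all, against 7.18% of all windows. These are matches of letters and not measured binding. Windows of neighbouring H2A and H2B genes can overlap, so the same site can be counted for both. The octamer was shared in this way by Hist1h2aa and Hist1h2ba, by Hist1h2ae and Hist1h2bg and by Hist1h2ah and Hist1h2bk.
Hist1h1c: tgaagtgtaacAAACACAagttgggcgcag
Hist1h1d: tgaggggcaacAAACACAgccacaaggcaa
Hist1h1e: tgaggtgtaacAAACACAactccgcatctg
Hist1h2ae: atagaggttctATGCAAATaagggactcaa
Hist1h2bg: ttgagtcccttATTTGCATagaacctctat
The capitals mark the H1 box in the first 3 stretches and the octamer in the last 2. Hist1h1b and Hist1h1t also held the H1 box and are not shown. The 3 H1 genes shown fell with TGF-β2, as given below, while Hist1h1b was not called as falling. The stretches lie at chr13:23738684-23738713 (+), chr13:23554899-23554928 (+), chr13:23622655-23622684 (-), chr13:23571330-23571359 (-) and chr13:23571330-23571359 (+) of GRCm38.p6. The last 2 are the same 30 bases read on opposite strands, since Hist1h2ae and Hist1h2bg are transcribed away from each other out of 1 promoter region.

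Summed over the 62 genes, the table listed 26992, 29012 and 26240.2 FPKM without TGF-β2 and 24774, 22104 and 25694 FPKM with it. All 3 treated libraries lay below all 3 untreated ones, and the treated library with the miR-31 inhibitor was lowest. As a share of the summed FPKM of the library, which itself differed between libraries, they were 0.969%, 1.13% and 0.970% without TGF-β2 and 0.969%, 0.877% and 1.08% with it. On that scale the NC libraries were alike, and only the miR-31 pair was lower with TGF-β2, while the treated miR-27 library was above its untreated one. H4 genes made up 45.7% to 51.3% of the sum and H2B genes 22.2% to 25.8%. The 8 most abundant genes, Hist2h2bb, Hist1h4f, Hist1h4n, Hist1h2bb, Hist1h4c, Hist1h4d, Hist2h4 and Hist1h4h, made up 54.5% to 57.9%. In these bulk samples, fewer cells in S phase and less histone RNA per cell cannot be told apart.

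**Figure D1:**
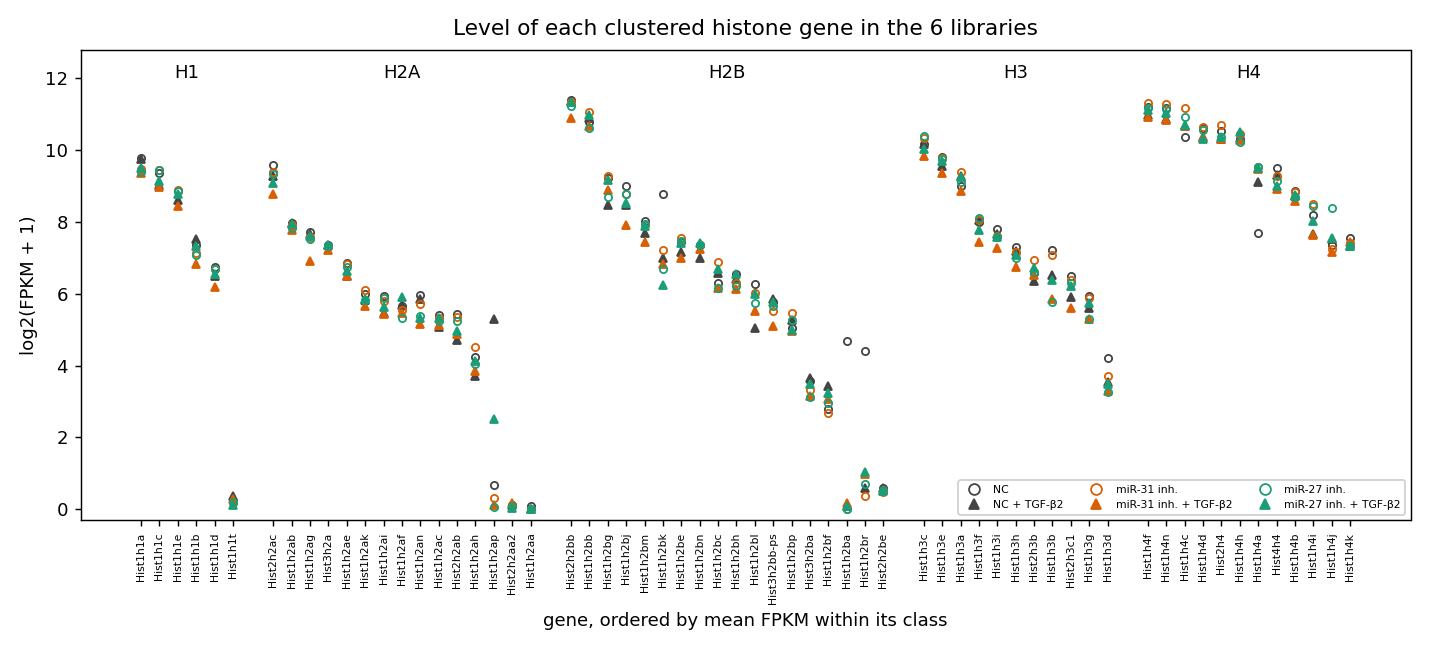
Level of each of the 62 genes as log2(FPKM + 1) in the 6 libraries, ordered by mean within each class; open circles are untreated, filled triangles have TGF-β2, and colours give the inhibitor. Points of a gene mostly lie close together, while Hist1h2ap, Hist1h2ba and Hist1h2br are spread over several units.

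**Figure D2:**
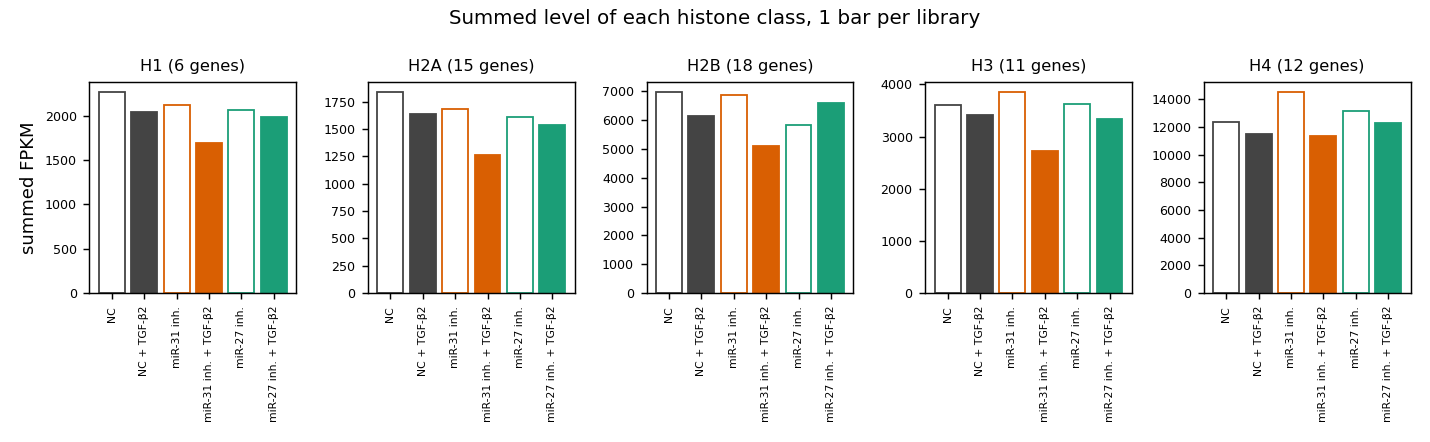
Summed FPKM of each histone class, with 1 bar per library and axes starting at 0. In H1, H3 and H4 all treated bars (filled) are below all untreated bars (open), while in H2B the treated miR-27 bar is above the untreated one.

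With TGF-β2, 14 of the 58 tested genes fell and 1, Hist1h2bf, rose (limma, adjusted p under 0.05). The falls were small, from 0.24 to 0.60 on the log2(FPKM + 1) scale, and came from all 5 classes and from the Hist1, Hist2 and Hist4 clusters. Over all 11816 genes tested, 27.5% fell and 22.7% rose, or 50.2% in either direction, so the share of histone genes that fell was near the background and the share that rose was below it. The median coefficient of the histone genes was -0.22 against -0.02 over all genes tested, and 48 of 58 were below 0 against 53.4% of all genes tested. Values with TGF-β2 lay wholly below those without in 18 histone genes, against 31.6% of all genes tested. They lay wholly above in 1, against 26.8% of all genes tested. The count of falls depended on the libraries used. Without the miR-27 libraries 24 of 58 fell, or 41.4% against 17.7% of all genes tested in the same fit, and the share of histone genes was then well above the background. Without the miR-31 libraries 12 fell, against 27.7%, and without the NC libraries 11 fell, against 16.3%. Rises numbered 1, 5 and 2 in these fits, against 15.5%, 23.8% and 13.9%. With no filter on low values 3 of 62 fell, against 13.9%, and 0 rose, against 12.1%. The calls lost without the NC libraries were those of Hist1h1d, Hist1h1e, Hist1h2ae, Hist1h2bj, Hist1h2bm, Hist1h4n, Hist2h3c1 and Hist4h4. Without the miR-31 libraries those of Hist1h1e, Hist1h2bm and Hist2h3c1 were lost, and without the miR-27 libraries that of Hist4h4. The 3 genes Hist1h1c, Hist1h2ai and Hist1h4d fell in every alternative that was run.

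**Figure D3:**
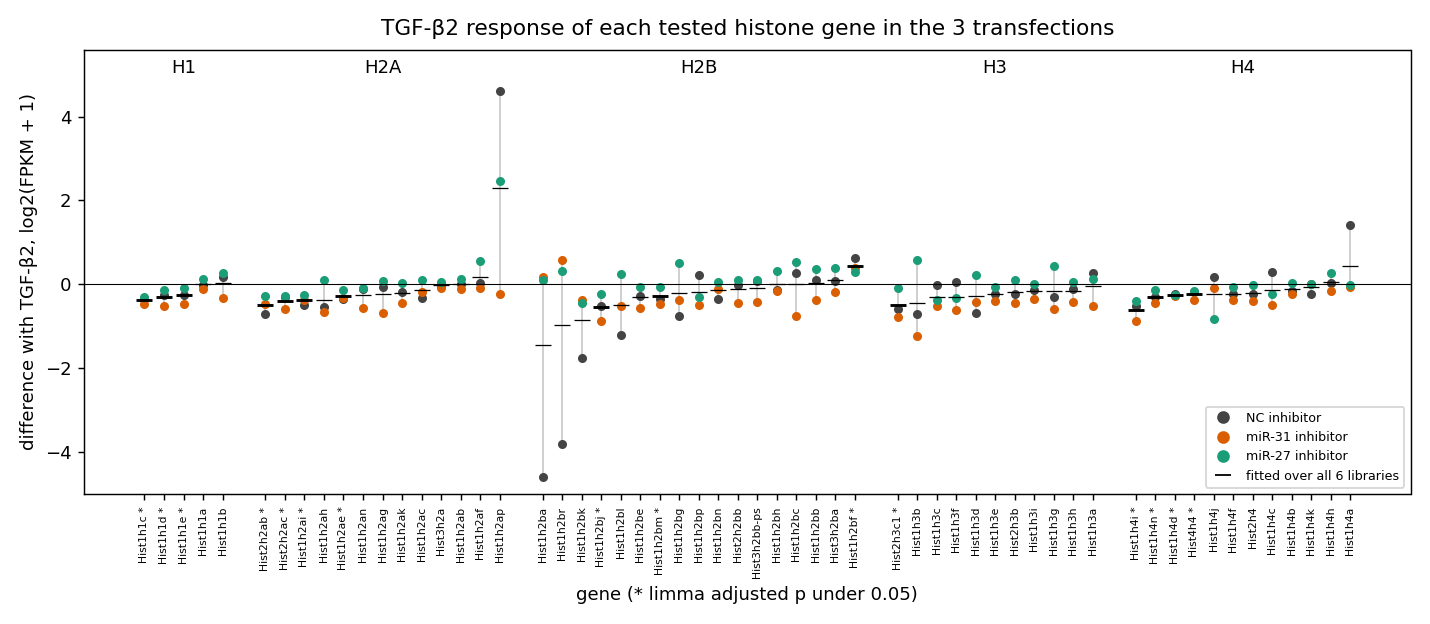
Difference with TGF-β2 of each tested gene in each transfection (points, 1 pair of libraries each) and the coefficient fitted over all 6 libraries (short bars), on the log2(FPKM + 1) scale; an asterisk marks genes past the threshold. Most points with the miR-31 inhibitor are the lowest of their gene, and most with the miR-27 inhibitor the highest.

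Of the 5 linker histone genes tested, 3 fell with TGF-β2 and none rose, against 27.5% and 22.7% of all genes tested. The summed level of the class was 2262, 2126 and 2060.0 FPKM without TGF-β2 and 2042, 1689 and 1984 FPKM with it. Hist1h1c was listed at 656, 695 and 694 FPKM without TGF-β2 and 518, 501 and 563 FPKM with it. Every treated value was below every untreated one, and the gene fell by 0.37 ± 0.050 (SE, limma adjusted p = 0.00408). Hist1h1d was listed at 107, 102 and 103 FPKM without TGF-β2 and 89.0, 71.3 and 93.0 FPKM with it, without overlap, and fell by 0.31 ± 0.080 (SE, limma adjusted p = 0.0296). Hist1h1e was listed at 466, 477 and 461 FPKM without TGF-β2 and 393, 345 and 437 FPKM with it, also without overlap, and fell by 0.26 ± 0.082 (SE, limma adjusted p = 0.0489). Its call was lost with the smaller pseudocount, with looser filters, with either rescaling and without the NC or the miR-31 libraries. The H1 genes that did not pass were Hist1h1a and Hist1h1b. Hist1h1a, the most abundant, was listed at 869.9, 712 and 668 FPKM without TGF-β2 and 859, 660.3 and 729.5 FPKM with it, and its coefficient was -0.000 ± 0.058 (SE, limma adjusted p = 0.998). Hist1h1b was listed at 163, 140.0 and 134 FPKM without TGF-β2 and 183, 112 and 161 FPKM with it, with the treated values on both sides of the untreated ones and a coefficient of 0.038 ± 0.12 (SE, limma adjusted p = 0.816). Hist1h1t, the linker histone of male germ cells, was listed at 0.161, 0.120 and 0.141 FPKM without TGF-β2 and 0.286, 0.218 and 0.0821 FPKM with it, too low to test.

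Of the 13 H2A genes tested, 4 fell and none rose, against 27.5% and 22.7% of all genes tested. The class summed to 1834, 1684 and 1606 FPKM without TGF-β2 and 1634, 1261 and 1533 FPKM with it, each treated value being below the untreated value of its inhibitor. A large part was Hist2h2ac, listed at 761, 666 and 650.0 FPKM without TGF-β2 and 617, 441 and 538 FPKM with it. Its treated values were all lower and it fell by 0.39 ± 0.076 (SE, limma adjusted p = 0.0125). Its neighbour Hist2h2ab was listed at 42.1, 39.9 and 37.1 FPKM without TGF-β2 and 25.3, 28.3 and 30.2 FPKM with it, and the treated values were again all lower. It fell by 0.49 ± 0.088 (SE, limma adjusted p = 0.00934). Among H2A genes of the Hist1 cluster, Hist1h2ai was listed at 60.8, 55.0 and 58.1 FPKM without TGF-β2 and 43.1, 42.2 and 48.8 FPKM with it and fell by 0.37 ± 0.058 (SE, limma adjusted p = 0.00640). Hist1h2ae was listed at 115, 113 and 107 FPKM without TGF-β2 and 89.3, 89.4 and 97.6 FPKM with it and fell by 0.27 ± 0.061 (SE, limma adjusted p = 0.0187). Neither overlapped between treated and untreated libraries.

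The other H2A genes tested did not pass. Hist1h2ab, listed at 249, 238 and 224 FPKM without TGF-β2 and 250.4, 219.5 and 247 FPKM with it, and Hist3h2a, listed at 164, 157 and 159 FPKM without TGF-β2 and 162, 147 and 164 FPKM with it, varied least among the tested histone genes, the highest value being 1.14 and 1.11 times the lowest. Their coefficients were 0.009 and -0.021. The place listed for Hist3h2a is shared with Trim17, a ubiquitin ligase gene, so its value may not be that of the histone alone. Coefficients of Hist1h2ac, Hist1h2ag, Hist1h2ah, Hist1h2ak and Hist1h2an, with means of 37.2, 182, 16.2, 58.1 and 47.1 FPKM, were -0.13, -0.22, -0.37, -0.20 and -0.25. Hist1h2af was listed at 49.4, 45.4 and 39.4 FPKM without TGF-β2 and 50.8, 42.9 and 58.8 FPKM with it. It had one of the 4 largest positive coefficients among the histone genes, 0.17 ± 0.13 (SE, limma adjusted p = 0.319), and its treated and untreated values overlapped. Hist1h2aa, the testis H2A, was listed at 0 in 5 libraries and at 0.0551 FPKM in the untreated NC library. Hist2h2aa2 was listed at 0.0784, 0.0883 and 0.0609 FPKM without TGF-β2 and 0.0875, 0.122 and 0.0318 FPKM with it. All windows of 50 bases of its reading frame are shared with another GENCODE gene.

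Of the 17 H2B genes tested, 2 fell and 1 rose, against 27.5% and 22.7% of all genes tested. In this class a treated sum, that with the miR-27 inhibitor, was above its untreated one, the sums being 6961, 6868 and 5815 FPKM without TGF-β2 and 6158, 5097 and 6576 FPKM with it. Hist2h2bb, the most abundant clustered histone gene, was listed at 2673, 2586 and 2412 FPKM without TGF-β2 and 2637, 1912 and 2605 FPKM with it. The treated miR-31 library was lowest, the other 5 lay close together, and the coefficient was -0.11 ± 0.11 (SE, limma adjusted p = 0.430). Hist1h2bb was listed at 1759, 2122 and 1569.5 FPKM without TGF-β2 and 1887, 1639 and 2010.1 FPKM with it, with the lowest and the highest values both in untreated libraries and a coefficient of 0.029 ± 0.14 (SE, limma adjusted p = 0.880). Falls were called for Hist1h2bj and Hist1h2bm. Hist1h2bj was listed at 508, 442 and 438 FPKM without TGF-β2 and 352, 242 and 370.4 FPKM with it, without overlap, and fell by 0.54 ± 0.12 (SE, limma adjusted p = 0.0188). Hist1h2bm was listed at 262, 240.2 and 246 FPKM without TGF-β2 and 206, 174 and 236 FPKM with it, without overlap, and fell by 0.29 ± 0.086 (SE, limma adjusted p = 0.0439). Its call was also lost with the smaller pseudocount and with either rescaling. The single rise was that of Hist1h2bf, a lowly listed gene, at 5.92, 5.40 and 6.76 FPKM without TGF-β2 and 9.72, 7.33 and 8.50 FPKM with it. Every treated value was above every untreated one, and it rose by 0.43 ± 0.076 (SE, limma adjusted p = 0.00868).

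Of the H2B genes that did not pass, Hist1h2be, which shares its listed place with Hist1h1e, came close. It was listed at 171, 186 and 176 FPKM without TGF-β2 and 142, 126 and 169 FPKM with it, without overlap, with a coefficient of -0.29 ± 0.10 (SE, limma adjusted p = 0.0630). Hist1h2bh, Hist1h2bn and Hist1h2bp had means of 81.4, 156 and 35.3 FPKM and coefficients of -0.000, -0.13 and -0.19. Hist3h2ba was listed at 10.8, 8.96 and 7.67 FPKM without TGF-β2 and 11.5, 7.83 and 10.3 FPKM with it, and Hist3h2bb-ps, a pseudogene by its name, at 53.7, 45.0 and 49.2 FPKM without TGF-β2 and 56.5, 33.5 and 53.2 FPKM with it. Both were lowest in the treated miR-31 library or next to lowest, and their coefficients were 0.10 and -0.078. Hist2h2be was listed at only 0.494, 0.385 and 0.449 FPKM without TGF-β2 and 0.502, 0.451 and 0.426 FPKM with it and was not tested.

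H3 genes summed to 3612, 3848 and 3622 FPKM without TGF-β2 and 3422, 2716 and 3334 FPKM with it, and all 11 coefficients were below 0, with exceptions in some alternatives. That of Hist1h3a was above 0 with quantile normalization, and without the miR-31 libraries it was 0.20 and past the threshold (limma adjusted p = 0.0307), while that of Hist1h3g was above 0 there without passing. The only call with all 6 libraries was Hist2h3c1, which was listed at 89.4, 82.5 and 77.7 FPKM without TGF-β2 and 59.2, 47.9 and 73.0 FPKM with it, without overlap. It fell by 0.48 ± 0.14 (SE, limma adjusted p = 0.0374). Its call was also lost with quantile normalization and with trend and robust options. Its fellow in the Hist2 cluster, Hist2h3b, was listed at 94.9, 123 and 96.1 FPKM without TGF-β2 and 80.2, 90.4 and 103 FPKM with it, with overlap and a coefficient of -0.19 ± 0.11 (SE, limma adjusted p = 0.201). The most abundant H3 genes were Hist1h3c and Hist1h3e. Hist1h3c was listed at 1158, 1297 and 1339.8 FPKM without TGF-β2 and 1144, 912 and 1035 FPKM with it, without overlap, and its coefficient was -0.30 ± 0.10 (SE, limma adjusted p = 0.0610). Hist1h3e was listed at 898, 875 and 865 FPKM without TGF-β2 and 759.5, 662 and 831 FPKM with it, without overlap, with -0.23 ± 0.074 (SE, limma adjusted p = 0.0519). The coefficients of Hist1h3a, Hist1h3d, Hist1h3f, Hist1h3h and Hist1h3i, with means of 569.7, 11.3, 242, 135 and 192 FPKM, were -0.034, -0.28, -0.29, -0.15 and -0.16.

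The H4 genes held the highest levels per length, with a median of mean FPKM of 961 over the 12 genes against 47.8 over the 15 H2A genes. Several H4 genes were listed with the reading frame of 312 bases alone. The lengths behind the FPKM are not given, so this order of classes is uncertain. Their sum was 12322, 14486 and 13137 FPKM without TGF-β2 and 11518, 11341 and 12266 FPKM with it. The largest fall of a histone gene past the threshold was that of Hist1h4i, listed at 293, 363 and 344 FPKM without TGF-β2 and 203, 198 and 260.0 FPKM with it. No values overlapped, and it fell by 0.60 ± 0.097 (SE, limma adjusted p = 0.00695). Hist1h4n was listed at 2308, 2497 and 2281 FPKM without TGF-β2 and 1866, 1832 and 2083 FPKM with it and Hist1h4d at 1561, 1609.8 and 1520.4 FPKM without TGF-β2 and 1322, 1317 and 1267 FPKM with it. In both, the treated values were all lower. Hist1h4n fell by 0.29 ± 0.070 (SE, limma adjusted p = 0.0223) and Hist1h4d fell by 0.26 ± 0.039 (SE, limma adjusted p = 0.00536). Hist4h4, alone on its chromosome, was listed at 719.7, 623 and 567 FPKM without TGF-β2 and 632, 479 and 507 FPKM with it. The treated and untreated values overlapped, because NC values were higher in both states, yet each treated value was below the untreated value of its own inhibitor, and the gene fell by 0.24 ± 0.058 (SE, limma adjusted p = 0.0233).

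Other H4 genes at high levels did not pass. Hist1h4f was listed at 2351, 2538 and 2315 FPKM without TGF-β2 and 2009.6, 1954 and 2224 FPKM with it and Hist2h4 at 1483, 1647 and 1326 FPKM without TGF-β2 and 1268, 1261 and 1320.2 FPKM with it. Neither overlapped, and their coefficients were -0.22 ± 0.070 (SE, limma adjusted p = 0.0524) and -0.21 ± 0.080 (SE, limma adjusted p = 0.0879). Hist1h4c was listed at 1313, 2306 and 1938 FPKM without TGF-β2 and 1614, 1638 and 1659 FPKM with it, the treated values lying together between the untreated NC value and the other two, and its coefficient was -0.14 ± 0.15 (SE, limma adjusted p = 0.482). Hist1h4h was listed at 1269, 1387 and 1204 FPKM without TGF-β2 and 1289, 1249 and 1445 FPKM with it, with overlap and a coefficient of 0.045 ± 0.086 (SE, limma adjusted p = 0.690). Hist1h4b and Hist1h4k, with means of 427 and 168 FPKM, had coefficients of -0.12 and -0.067.

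Some histone genes are laid out as H2A and H2B pairs transcribed in opposite directions, so that 1 region serves as promoter to both. In GENCODE, 11 such pairs had starts 173 to 306 bases apart, and 6 of them held the octamer in the window of at least 1 partner. Both partners were tested in 9 pairs, and their TGF-β coefficients had the same sign in 7. Since 48 of the 58 tested histone genes had a coefficient below 0, histone genes that are not partners would often share a sign too. Levels of partners were often far apart per length. Hist2h2ac averaged 612 FPKM and its partner Hist2h2be 0.451 FPKM, and Hist1h2ah averaged 16.2 FPKM against 166 FPKM of Hist1h2bk. H2B was the higher partner in 7 of the 11 pairs. In the pair with the shared octamer stretch, Hist1h2ae averaged 102 FPKM and Hist1h2bg 505 FPKM.

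Genes with and without an annotated stem-loop were set side by side. Over all genes tested 27.5% fell and 22.7% rose. Among the 39 tested histone genes with a stem-loop, 12 fell and 1 rose, with a median coefficient of -0.23. Among the 19 without, 2 fell and none rose, with a median of -0.16. Genes with a stem-loop had a median level of 242 FPKM and those without 58.1 FPKM. The difference between the 2 sets was not tested. Of all 21 genes without one, 18 had fewer than 60 bases annotated after the stop codon, so the split also follows the length of the annotation. Of the 7 tested genes with the H1 box in the promoter window 4 fell, and of the 13 with the octamer 3 fell, against the same 27.5%.

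The size of the difference with TGF-β2 was not alike in the 3 transfections. Its median over the 58 tested genes was -0.22 with NC, -0.41 under miR-31 inhibition and 0.032 under miR-27 inhibition, while the medians over all genes tested were -0.016, -0.028 and -0.019. Values were below 0 in 42 genes with NC, in 54 for the miR-31 pair and in 26 for the miR-27 pair, against 52.3%, 54.1% and 53.2% of all genes tested. The miR-31 difference was the lowest of the 3 in 44 of 58 genes, against 43.7% of all genes tested, and the miR-27 difference was the highest in 44, against 32.6%. In 36 genes the order was miR-31 inhibitor below NC below miR-27 inhibitor, against 21.3%. Each transfection gave 1 pair of libraries, so these counts describe 6 libraries, and genes of a library are not replicates of it.

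By class, the log2 ratio of the summed level with TGF-β2 to that without was -0.15, -0.33 and -0.054 for H1 and -0.17, -0.42 and -0.067 for H2A. It was -0.18, -0.43 and 0.18 for H2B, -0.078, -0.50 and -0.12 for H3 and -0.10, -0.35 and -0.10 for H4. The miR-31 pair gave the lowest ratio in all 5 classes. With the miR-27 inhibitor the H2B ratio was the only one above 0, but what set H2A and H3 apart from it rested on single genes. Without the most abundant gene of each class the miR-27 ratio was also above 0 for H2A, at 0.058, and for H3, at 0.010, with 0.22 for H2B. Means over the 3 transfections ranged from -0.14 ± 0.31 (SD, n = 3 pairs of libraries) for H2B to -0.23 ± 0.23 (SD, n = 3) for H3.

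The treated miR-31 library was the lowest of the 6 in 35 of the 58 tested genes and the highest in none, against 24.6% and 20.6% of all genes tested. Compared with the treated NC library, the median difference of the histone genes was -0.20 and 45 of 58 were below 0, against 50.9% of all genes tested. Compared with the treated miR-27 library the median was -0.25 and 54 of 58 were below 0, against 53% of all genes tested. Without TGF-β2, the same inhibitor against NC gave a median of -0.066 and 36 of 58 below 0, against 44.7% of all genes tested. With the libraries rescaled to a common median ratio, the median differences with TGF-β2 were -0.21, -0.38 and 0.054 in the 3 transfections.

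Other gene lists moved in the same library. For genes of the responses to amino acid shortage and unfolded protein, the summed level was 1619, 1872 and 1891 FPKM without TGF-β2 and 1364, 3355 and 1519 FPKM with it. The median difference of the 16 tested was -0.74 with NC, 1.04 under miR-31 inhibition and -0.57 under miR-27 inhibition. Herpud1, a gene of the unfolded protein response, was listed at 18.4, 24.1 and 24.8 FPKM without TGF-β2 and 21.5, 218 and 31.2 FPKM with it. Mitotic genes, 21 tested, had medians of -0.023, -0.21 and -0.0047. The part of these in the histone values was not tested.

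**Figure D4:**
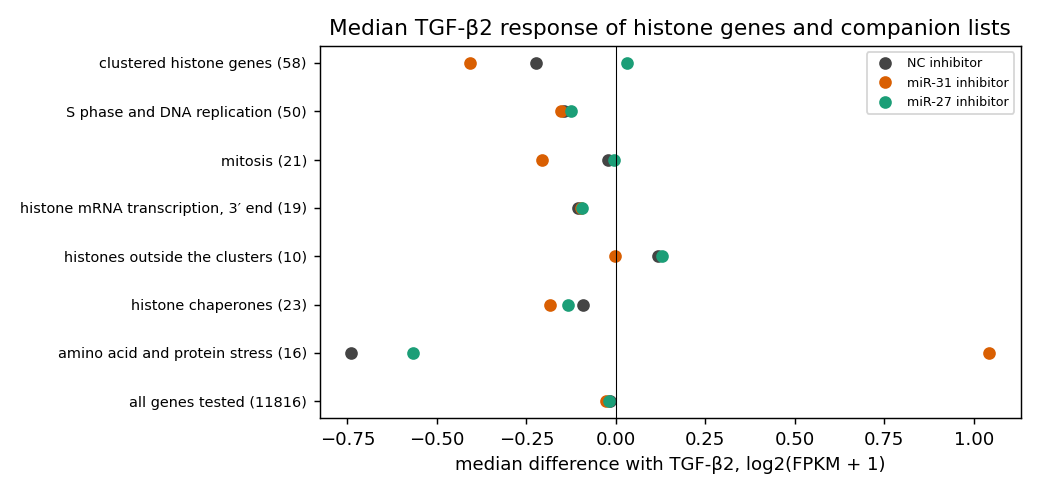
Median difference with TGF-β2, on the log2(FPKM + 1) scale, of the clustered histone genes, of 6 companion lists and of all genes tested, with 1 point per transfection and the number of tested genes in brackets. The 3 points of the S phase list lie together, while those of the histone genes and of the stress list lie apart.

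No histone gene passed the threshold in any comparison between inhibitors by limma. With the miR-31 inhibitor against NC, 0 of 58 passed, against 0.0339% of all genes tested, and 9 had an unadjusted p under 0.05, against 18.1%. The lowest adjusted p was 0.227, for Hist1h1a, whose coefficient was -0.33. With the miR-27 inhibitor against NC, 0 passed, against 0.00846%, and 5 had an unadjusted p under 0.05, against 12.4%. Between the inhibitors 0 passed, against 0.0169%, and 2 had an unadjusted p under 0.05, against 3.41%. Hist4h4 and Hist1h1a were among those with an unadjusted p under 0.05 for both inhibitors against NC. The Hist4h4 coefficients were -0.30 and -0.33, with limma adjusted p of 0.228 and 0.295. Leaving out 1 library changed these counts. Without the untreated miR-31 library the inhibitor was represented by its treated library alone. Against NC 15 histone genes then passed as lower and 0 as higher, while 3.68% of all genes tested passed as lower and 5.94% as higher. Against the miR-27 inhibitor 3 passed as lower and 0 as higher, against 0.601% and 1.16%. Without the treated NC library, Hist1h2ba, Hist1h2bk and Hist1h2br passed as lower and Hist1h4a as higher with either inhibitor than with NC. The shares over all genes tested were then 0.0846% lower and 0.0254% higher for the miR-31 inhibitor and 0.0762% and 0.0254% for the miR-27 inhibitor.

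A few genes did not hold a steady level. Over the 6 libraries the highest value was under 1.5 times the lowest in 29 of the 58 tested genes, under 2 times in 48 and under 3 times in 53. The 5 others were Hist1h2ap, Hist1h2ba, Hist1h2br, Hist1h2bk and Hist1h4a. Hist1h2ap was listed at 0.606, 0.252 and 0.0371 FPKM without TGF-β2 and 38.5, 0.0743 and 4.71 FPKM with it. Only the treated NC library and, at a lower level, the treated miR-27 library stood out, and the coefficient was 2.29 ± 0.90 (SE, limma adjusted p = 0.0903). Hist1h2br was listed at 20.0, 0.302 and 0.629 FPKM without TGF-β2 and 0.513, 0.958 and 1.04 FPKM with it, high only in the untreated NC library, with a coefficient of -0.96 ± 0.91 (SE, limma adjusted p = 0.417). Without the NC libraries it was 0.46 (limma adjusted p = 0.0279), of the opposite sign. Hist1h2ap and Hist1h2br are neighbours transcribed away from each other, with starts 236 bases apart. Every window of 50 bases of either reading frame also occurs in another gene, such as Hist1h2ao for the first and Hist1h2bq for the second. No values were listed under either of these names.

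Hist1h2ba, the H2B of male germ cells, was listed at 24.7, 0 and 0 FPKM without TGF-β2 and 0.0633, 0.133 and 0.0684 FPKM with it. The untreated NC library alone was above 1 FPKM, and the 2 untreated inhibitor libraries were listed at 0. Its coefficient was -1.44 ± 1.01 (SE, limma adjusted p = 0.284). Hist1h2bk was listed at 434, 147 and 102 FPKM without TGF-β2 and 127, 114 and 74.5 FPKM with it, highest in the same untreated NC library, with -0.86 ± 0.29 (SE, limma adjusted p = 0.0626). Hist1h4a was listed at 207, 743 and 735 FPKM without TGF-β2 and 553, 717 and 728 FPKM with it. Here the untreated NC library was the lowest, and the coefficient was 0.45 ± 0.31 (SE, limma adjusted p = 0.279). In Hist1h2ba 38.2% of windows of 50 bases of the reading frame were shared with another gene, in Hist1h2bk 95.2% and in Hist1h4a 75.3%. Sharing was not particular to the unsteady genes. Of the 31 tested genes with at least 75% of windows shared 4 were unsteady, and of the 27 with less 1 was. All windows of the steady Hist1h4n, Hist2h2bb and Hist3h2a were shared, with Hist1h4m, Gm20628 and Trim17. Trim17 has the listed place of Hist3h2a, and Gm20628 also held all windows of Hist2h3b. Such matches need not be separate copies, so these genes say little about sharing between copies. A link between sharing and steadiness was not tested. Markers of male germ cells fixed beside the histone list, Prm1, Prm2, Tnp1, Ddx4 and Sycp3, reached at most 0.307 FPKM in any library. A listed 0 was seen in other abundant genes too, such as Rbbp7, a histone chaperone, at 175, 166 and 169 FPKM without TGF-β2 and 187, 0 and 173 FPKM with it.

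**Figure D5:**
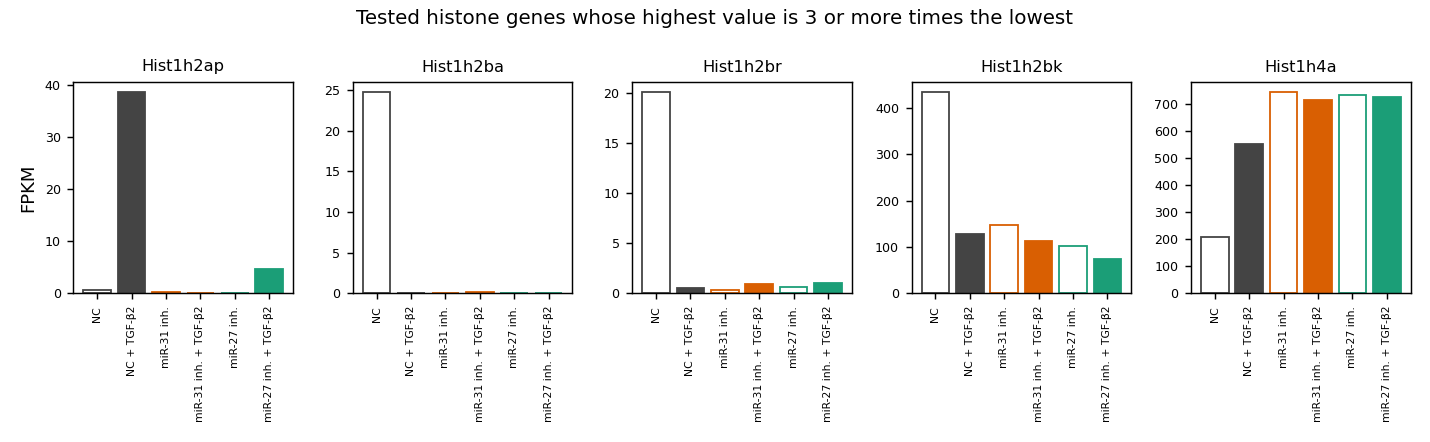
FPKM in each library of the 5 tested genes whose highest value was at least 3 times the lowest or that were listed at 0, with 1 bar per library and a separate axis from 0 for each gene. The untreated NC library is the high one in Hist1h2ba, Hist1h2br and Hist1h2bk and the low one in Hist1h4a.

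Differences of at least 1 between a pair of libraries were found in few other genes. For TGF-β2 with NC, 2 genes were higher and 4 lower by this size, against 2.62% and 2.12% of all genes tested. With the miR-31 inhibitor 0 were higher and 1 lower, against 2.65% and 2.43%, and with the miR-27 inhibitor 1 was higher and 0 lower, against 2.43% and 2.04%. Between inhibitors without TGF-β2, 1 gene was higher and 3 lower with miR-31 inhibition than with NC, against 0.0846% and 0.178% of all genes tested, and 2 were higher and 4 lower with miR-27 inhibition, against 0.118% and 0.178%. Untreated, the miR-31 library against the miR-27 one gave 1 gene higher and 1 lower, against 0.161% and 0.135%. With TGF-β2, 0 were higher and 1 lower in each of the 3 comparisons, always Hist1h2ap. Shares of all genes tested were 0.432%, 0.11% and 0.305% for higher values and 0.254%, 0.0846% and 0.237% for lower ones. Beyond the 5 unsteady genes those affected were Hist1h2bl and Hist1h3b. Hist1h2bl was listed at 75.6, 63.9 and 52.2 FPKM without TGF-β2 and 32.3, 44.7 and 62.5 FPKM with it, with the treated NC library lowest. Hist1h3b was listed at 149, 135 and 53.8 FPKM without TGF-β2 and 90.7, 56.9 and 81.7 FPKM with it, and the untreated miR-27 library was as low as the treated miR-31 library. Without TGF-β2, Hist1h3b was also lower by at least 1 with the miR-27 inhibitor than with NC or the miR-31 inhibitor. Hist1h4j was higher with the miR-27 inhibitor, listed at 163, 149 and 332 FPKM without TGF-β2 and 184, 142 and 187 FPKM with it, with a single high library, the untreated miR-27 one.

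SLBP, NPAT and the other proteins that make, cut and degrade these mRNAs form a list of their own. Of 19 tested, 7 fell and 1 rose with TGF-β2, with a median coefficient of -0.085. For this list and those that follow, the shares over all genes tested were 27.5% for falls and 22.7% for rises. Npat was listed at 11.9, 12.5 and 13.2 FPKM without TGF-β2 and 11.4, 11.8 and 12.2 FPKM with it, with a coefficient of -0.078 ± 0.039 (SE, limma adjusted p = 0.158). Slbp was listed at 129, 126 and 125 FPKM without TGF-β2 and 118, 116 and 114 FPKM with it, and it fell by 0.12 ± 0.038 (SE, limma adjusted p = 0.0498), just within the threshold. Lsm11, a subunit of the U7 particle that cuts histone transcripts, was listed at 8.14, 8.51 and 8.55 FPKM without TGF-β2 and 6.06, 6.67 and 6.76 FPKM with it and fell by 0.33 ± 0.041 (SE, limma adjusted p = 0.00312). Ncbp2, the small subunit of the cap-binding complex, was listed at 17.8, 16.4 and 16.6 FPKM without TGF-β2 and 24.1, 20.4 and 21.5 FPKM with it and rose by 0.36 ± 0.044 (SE, limma adjusted p = 0.00298). The processing subunit Sympk fell by 0.20 ± 0.051 (SE, limma adjusted p = 0.0269), and Upf1, a helicase in histone mRNA decay, had -0.21 ± 0.067 (SE, limma adjusted p = 0.0509).

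Genes of S phase and DNA replication mark the time when histone mRNAs are made. Of 50 tested, 23 fell and 1 rose, with a median coefficient of -0.15, and the medians by transfection were close together at -0.15, -0.15 and -0.12. Gins2, a subunit of the replicative helicase, was listed at 41.4, 41.3 and 37.7 FPKM without TGF-β2 and 27.6, 25.2 and 26.1 FPKM with it and fell by 0.59 ± 0.051 (SE, limma adjusted p = 0.00101). Pola2, a subunit of DNA polymerase alpha, was listed at 52.2, 47.9 and 46.2 FPKM without TGF-β2 and 32.7, 32.3 and 31.6 FPKM with it and fell by 0.58 ± 0.046 (SE, limma adjusted p = 0.000747). Mcm10, a replication initiation factor, fell by 0.46 ± 0.048 (SE, limma adjusted p = 0.00181). Pcna, the sliding clamp, was listed at 419.9, 405 and 395 FPKM without TGF-β2 and 421, 393 and 401 FPKM with it and had a coefficient of -0.004 ± 0.040 (SE, limma adjusted p = 0.939). Of 21 mitotic genes, 4 fell and none rose, among them Ube2c, which fell by 0.47 ± 0.076 (SE, limma adjusted p = 0.00705), Prc1, Birc5 and Ccnb1.

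Histones coded outside the clusters were a mixed group. Of 10 tested, 3 rose and 1 fell, with a median coefficient of 0.071. The fall was that of H2afx, which is known to yield both a stem-loop mRNA and a polyadenylated one. It was listed at 358, 348 and 342 FPKM without TGF-β2 and 232, 215 and 267 FPKM with it and fell by 0.56 ± 0.077 (SE, limma adjusted p = 0.00422). The rises were those of H2afy, a macroH2A, which rose by 0.36 ± 0.042 (SE, limma adjusted p = 0.00253), of H3f3b, which codes for the replacement form of H3 and rose by 0.24 ± 0.040 (SE, limma adjusted p = 0.00757), and of H2afv, which rose by 0.15 ± 0.039 (SE, limma adjusted p = 0.0319). H3f3b was listed at 457, 478 and 516 FPKM without TGF-β2 and 549, 551 and 617 FPKM with it. H3f3a was listed at 401, 387 and 377 FPKM without TGF-β2 and 468, 387 and 437 FPKM with it and had 0.14 ± 0.061 (SE, limma adjusted p = 0.106). H2afz was listed at 545, 492 and 478 FPKM without TGF-β2 and 514, 427 and 456 FPKM with it, with -0.12 ± 0.047 (SE, limma adjusted p = 0.0933). H3f3a shares its listed place with H3f3b, and H2afz with H2afv, so their values may not be those of the named gene alone. H1f0, the linker histone of resting cells, had 0.10 ± 0.051 (SE, limma adjusted p = 0.160).

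Of 23 histone chaperones tested, 11 fell and 1 rose, with a median of -0.14. Chaf1a, of the complex that loads H3 and H4 at replication forks, was listed at 33.8, 32.1 and 31.9 FPKM without TGF-β2 and 24.8, 24.5 and 25.7 FPKM with it and fell by 0.37 ± 0.045 (SE, limma adjusted p = 0.00301). The importin Ipo4, which carries H3 and H4, fell by 0.57 ± 0.048 (SE, limma adjusted p = 0.000950), and Ncl, the nucleolar protein nucleolin, fell by 0.43 ± 0.047 (SE, limma adjusted p = 0.00214). Rbbp7, with its listed 0, had -2.42 ± 1.59 (SE, limma adjusted p = 0.258).

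The treatment and the cells were checked against their markers. All 6 tested TGF-β target genes rose. Of 9 tested endothelial markers, 3 rose and 3 fell. Of 15 markers of leukocytes, epithelium, smooth muscle and testis, 2 were at 1 FPKM or more on average, Krt18 at 38.2, 53.3 and 54.0 FPKM without TGF-β2 and 11.4, 14.8 and 15.8 FPKM with it and Des. Epcam and Tnp1 were listed at 0 in all 6 libraries. The summed level of the 15 was 39.7, 54.6 and 55.5 FPKM without TGF-β2 and 13.5, 16.7 and 17.7 FPKM with it. Growth arrest genes, 12 tested, gave 6 rises and 3 falls. Libraries listed 11680 to 11791 genes at 1 FPKM or more.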

How the data were processed

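RNA of 6 MS-1 libraries was measured by directional RNA sequencing after depletion of ribosomal RNA, per the labels' protocols. The authors deposited 1 table of FPKM by gene name and library. Reads had been aligned and quantified with TopHat2 2.0.9 and Cufflinks 2.1.1 on the mouse build mm9, as named in the submitters' processing notes. The annotation and the treatment of fragments matching several genes are not given in the sources used here. Listed starts count from 0 and are printed from 1.

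The deposited values were put on the log2(FPKM + 1) scale without further scaling. The 11816 names with a mean of at least 1 FPKM were fitted with limma 3.58.1 in R 4.3.3 on inhibitor and TGF-β2, with plain moderation (no trend, not robust). P-values are 2-sided and were adjusted by Benjamini-Hochberg over all 11816, with 0.05 as the threshold. There were 2 residual degrees of freedom, to which moderation added 2.87. Its residual holds noise and any dependence of the TGF-β difference on the inhibitor together. In simulated data of 11816 genes with 200 planted TGF-β changes it called 80% of changes of 0.5, 93% of 1 and 96% of 2, and 9 of 11616 unchanged genes. That was a check of the code. Noise in it was independent between genes, whereas 50.2% of genes were called here and most histone falls were smaller than 0.5. The rates therefore do not give the power or the false calls of this fit. Where only 2 libraries were compared no p-value is given, and 1 was the smallest difference counted.

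Stem-loops, reading frames and windows of 50 bases came from GENCODE vM21 transcripts, with 1 transcript per gene. The windows were taken from the reading frame alone and searched on both strands in all GENCODE transcripts. Promoter windows came from RefSeq (GRCm38.p6), where 61 names matched 1 gene by symbol or synonym. Hist1h2ap matched more than 1 and was left out. Genes were matched by name, since these builds differ from mm9.

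Members and lists were chosen with earlier results of these data known. Values in every library are given for histone genes past the threshold, the 8 most abundant, the 4 largest rises and falls, those with a 2-library difference of at least 1, the testis genes and the Hist2, Hist3 and Hist4 clusters. In each other list the 4 largest changes and Npat, Slbp, H2afx, H2afz, H3f3a, H3f3b, H1f0 and Pcna are named. Alternatives were another pseudocount, other filters, rescaled libraries, quantile normalization, other moderation options and libraries left out.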

Additional observations from a re-analysis of the deposited data

Results flagged for a closer look

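In 9 histone genes the difference with TGF-β2 pointed one way in one transfection and the other way in another, by at least 1 apart on the log2(FPKM + 1) scale. Each transfection is 1 pair of libraries, so none of these differences was tested. The genes were picked out after their values were seen. The share of all genes tested that met the same rule was not counted, so it is not known whether 9 is many.

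NC was above the miR-31 inhibitor by 4.84 in Hist1h2ap and by 1.46 in Hist1h4a. The miR-31 inhibitor was above NC by 4.78 in Hist1h2ba and by 4.39 in Hist1h2br. In all 4 the NC pair gave the distance, as the inhibitor pairs of Hist1h2ba, Hist1h2br and Hist1h4a lay within 1 of 0.

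The miR-27 inhibitor was above the miR-31 inhibitor by 1.83 in Hist1h3b, by 1.29 in Hist1h2bc and by 1.01 in Hist1h3g. It was above NC by 1.46 in Hist1h2bl and by 1.25 in Hist1h2bg. Differences with TGF-β2 in the order NC, miR-31 inhibitor, miR-27 inhibitor were -0.71, -1.23 and 0.59 for Hist1h3b, 0.27, -0.75 and 0.54 for Hist1h2bc and -0.31, -0.58 and 0.43 for Hist1h3g. They were -1.20, -0.51 and 0.26 for Hist1h2bl and -0.76, -0.38 and 0.50 for Hist1h2bg. Hist1h2bc was listed at 77.8, 118 and 70.6 FPKM without TGF-β2 and 93.8, 69.9 and 103 FPKM with it, Hist1h2bg at 597, 619.7 and 409 FPKM without TGF-β2 and 353, 475 and 578 FPKM with it and Hist1h3g at 59.9, 57.5 and 38.6 FPKM without TGF-β2 and 48.0, 38.2 and 52.2 FPKM with it. In Hist1h3b, Hist1h2bc, Hist1h3g, Hist1h2bl and Hist1h2bg alike, the treated miR-27 value was below the highest untreated one.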

How the results depend on the processing

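None of the 15 histone genes called with TGF-β2 changed sign in the alternatives that were run. Among all 58 tested, 22 changed sign in at least 1 of them, and 2 were then past the threshold with the other sign, Hist1h2br at 0.46 without the NC libraries and Hist1h3a at 0.20 without the miR-31 libraries. Of the 15 calls with TGF-β2, 3 held in every alternative. The 14 falls became 3 with no filter on low values, 8 with quantile normalization and 24 without both miR-27 libraries, and leaving out 1 library gave 11 to 24. The single rise became 0 with no filter, 2 without both NC libraries and 5 without both miR-31 libraries, and leaving out 1 library gave 1 to 5. Leaving out 1 library removes its pair from the TGF-β contrast, since the lone library is taken up by its inhibitor term, and the lone library is assumed to vary like the others. The counts of histone genes called between inhibitors, all 0, became, with 1 library left out, 0 to 15 lower and 0 to 1 higher for the miR-31 inhibitor against NC, 0 to 3 lower and 0 to 1 higher for the miR-27 inhibitor against NC, and 0 to 3 lower between the inhibitors. With a pseudocount of 0.1 the genes differing by at least 1 with TGF-β2 and the miR-31 inhibitor became 2 higher and 2 lower, and those higher with the miR-31 than the miR-27 inhibitor, untreated, became 2. Ratios of the class sums stayed within the spread of the 3 transfections, also without the members of unsteady level, an alternative chosen after seeing the data. Beyond the fewer samples or the added genes of the alternatives themselves, the cause was not tested. The inhibitor term already pairs each treated library with the untreated one of its transfection, and the labels give no replicate numbers for another pairing. Without counts, the depth behind a value is unknown. Near-identical copies limit the level of a single gene.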

Other observations

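Of the RNAs outside the histones that lack an ordinary poly(A) tail, Terc, the RNA template of telomerase, was listed at 87.9, 87.1 and 83.0 FPKM without TGF-β2 and 78.7, 84.5 and 80.6 FPKM with it, with a coefficient of -0.081 ± 0.045 (SE, limma adjusted p = 0.195). Neat1, a nuclear RNA with a long form that has no poly(A) tail, was listed at 153, 179 and 184 FPKM without TGF-β2 and 113, 153 and 136 FPKM with it and fell by 0.37 ± 0.059 (SE, limma adjusted p = 0.00675). The other RNAs of this list, Malat1, Rmrp and Rpph1, were listed at 0 in all 6 libraries. They are made by nearly all cells, so a listed 0 in this table cannot be read as absence of the RNA.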
